A study of Drosophila melanogaster with 8 samples.

Results

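The regions described here are the 576 H1-enriched regions of the authors' combined list that were overlapped by at least 1 bp in 3 or 4 of the 4 replicate lists, out of 16190 combined regions in all. They are called recurring regions below, and combined regions overlapped by no replicate list are called unsupported. They were selected on position alone, by the overlap of start and end coordinates, and no score was used. ChIP-seq, the sequencing of DNA recovered with an antibody, was used to map histone H1 in wild-type Oregon-R embryos of Drosophila melanogaster at 14 to 16 h. All 4 immunoprecipitated libraries are of this 1 strain, genotype and stage, fixed with formaldehyde, and each has an input library that was not analysed here. The labels do not state whether each replicate is its own embryo collection, so p-values measure the spread between these libraries, which may be technical. The embryos were whole, so the lists mix all cell types. The replicate lists hold 2185 to 3410 regions each, and read depth is unknown.

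H1 is the linker histone: it binds the nucleosome where DNA enters and leaves, together with the linker DNA, and helps to fold and compact the chromatin fibre. In Drosophila the somatic H1 is encoded by the repeated histone gene cluster, and it replaces an embryonic form, BigH1, as zygotic transcription starts. It is spread widely over the genome, is generally low at the start sites of active genes, and is needed for normal pericentric heterochromatin.

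The overlap with the replicate lists chose the recurring regions, so the counts of lists and the values of overlap are a description with no test. Of the 576 regions, 118 were touched by 4 lists and 458 by 3. They were 3.56% of all combined regions, and 9039 were touched by no list. The median recurring region was 3827.5 bp wide (quartiles 2719.75 and 5271.75 bp), against 1310 bp for unsupported regions. On the inside of the threshold, regions touched by 3 lists had a median width of 3630 bp. On the outside, the 1692 regions touched by 2 lists had a median of 2552 bp.

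The share of combined regions that recurred rose with their width. Of 7550 regions under 1500 bp, 13 recurred, or 0.17%. From 3000 to under 4000 bp, 128 of 1089 did (11.8%), and at 6000 bp and over 102 of 171 did (59.6%). Of the 16190 combined regions 365 were 5000 bp or wider, and 163 of these recurred, which is 28.3% of the recurring regions. A wide region gives a replicate list more bases to touch, and the part of this in the rise was not tested.

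**Figure D1:**
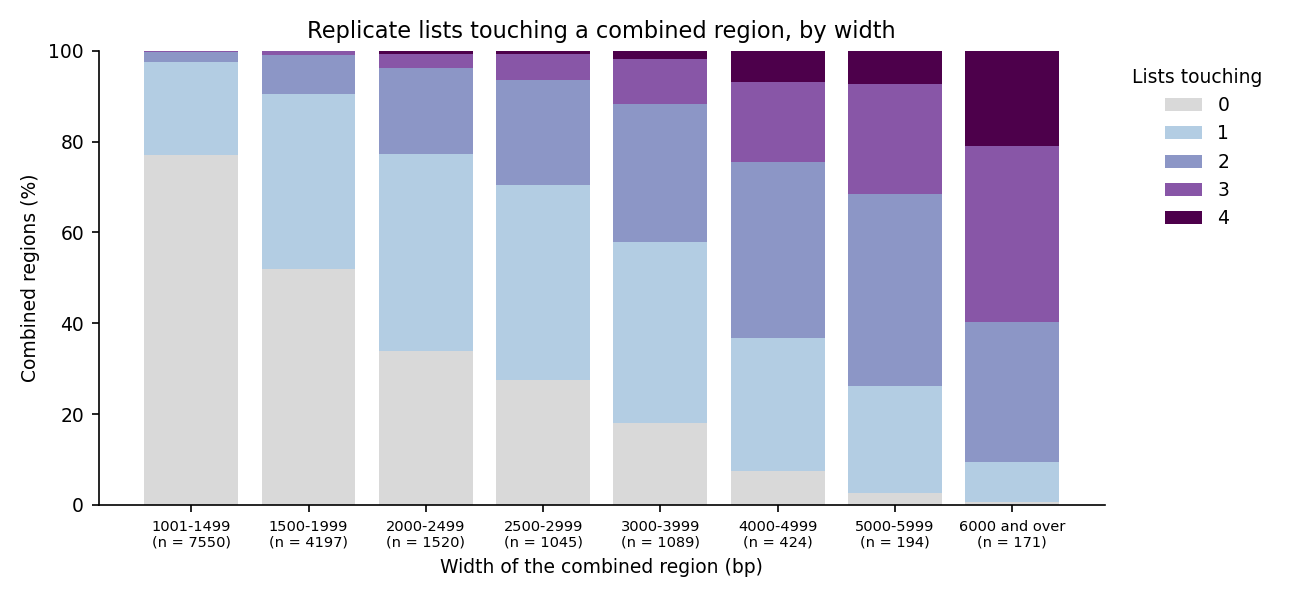
Share of combined regions (vertical axis, percent) touched by 0, 1, 2, 3 or 4 replicate lists, in 8 bins of region width (horizontal axis, bp, with the number of regions). The share touched by 3 or 4 lists went from 0.17% in the narrowest bin to 59.6% in the widest.

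The 4 replicates did not contribute equally. Replicates 1 to 4 touched 462, 418, 467 and 499 of the 576 recurring regions, that is 80.2%, 72.6%, 81.1% and 86.6%. The share of all combined regions touched by the same lists was 16.5%, 11.3%, 14.7% and 20.0%. Replicate 4 was highest in both series of values and replicate 2 lowest, which is also the order of the longest and shortest lists. Among the 458 regions touched by 3 lists, the missing list was replicate 2 in 158, replicate 1 in 114, replicate 3 in 109 and replicate 4 in 77. In the other direction, 18.4% ± 1.32 of the regions of a replicate list lay in a recurring region (SD, n = 4).

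Overlap by 1 bp is a weak requirement, and the number of recurring regions that depended on a small contact varied with the measure. The third largest overlap among the 4 lists had a median of 1324.5 bp and a lowest value of 7 bp. It was under 100 bp in 30 of the 576 regions and under 500 bp in 87. As a share of width, more were affected. When each counted list had to cover at least 25% of the combined region 366 regions remained, and at 50% 81 did. Some regions held several separate regions of the same list: this was so in 57, 30, 62 and 71 recurring regions for replicates 1 to 4. Each list covered only part of the region it touched, with a median of 48.6%, 36.7%, 40.4% and 47.4% of the width for replicates 1 to 4.

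Most recurring regions lay on the large autosomal arms. Arm 3R held 168, 2L 133, 3L 107 and 2R 60, together 81.3% of the recurring regions and 73.9% of all combined regions. To allow for width, each combined region was given the recurrence share of its width bin over the whole genome, and these shares were summed for each sequence. On 3R this gave 146.3 regions against the 168 observed, a ratio of 1.15. On 2R the 60 observed were below the 68.6 given by widths, a ratio of 0.88. The ratios of 2L (1.02) and 3L (0.99) were nearer to 1. Regions are not replicates, so these ratios carry no p.

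The X chromosome carried few recurring regions. It held 19 of them, or 0.94% of its 2026 combined regions (exact 95% binomial interval 0.57% to 1.46%, covering counting error only), against 3.91% on 2L, 2R, 3L and 3R (3.57% to 4.27%). Its combined regions were narrower, with a median of 1442.5 bp against 1587 bp, and their widths alone gave 41.4 recurring regions, so the observed number was 0.46 of that. After standardisation to the widths of all combined regions the share on X was 1.93% against 3.68% on the 4 autosomal arms. Replicate 2 was the list most often absent on X, missing from 12 of the 17 regions touched by 3 lists there. At X 7769400-7772811, an example of 3412 bp, replicates 1 to 4 covered 44.2%, 0%, 61.7% and 51.0% of the width. Without replicate 2, when the 3 other lists all had to touch, the share on X was 0.69%, and without replicate 1, 3 or 4 it was 0.20%, 0.20% and 0.15%. The corresponding shares on the 4 autosomal arms were 1.77%, 1.63%, 1.57% and 1.37%, above those of X in each case.

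Chromosome 4, known as a small autosome with heterochromatin-like chromatin, had no recurring region among its 52 combined regions (0 of 52, which allows a share of up to 5.77%). This limit is 3 counts of the total, not the exact interval used for X, and covers counting error only. The widths on chromosome 4 gave only 0.28, so a lower share than elsewhere was not detectable with so few regions. XHet and YHet likewise had 0 of 14 and 0 of 26, which allow shares of up to 21.4% and 11.5%. Widths gave 0.72 and 0.18 there.

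Heterochromatin of chromosome 3 showed the opposite pattern on its left arm. The sequence 3LHet held 29 recurring regions, 7.07% of its 410 combined regions (4.79% to 10.0%), where widths gave 19.2, a ratio of 1.51. It had 11.3 recurring regions per Mb, against 4.84 on the 4 autosomal arms, and 10 of the 29 were touched by 4 lists. On 3RHet the 17 observed were close to the 18.4 given by widths, and on 2RHet the 13 observed were below the 18.9. All 6 Het sequences together had 62 recurring regions where widths gave 58.4 (a ratio of 1.06), and the ratio differed between them. 2LHet, with few regions, held 3 of 30 where widths gave 0.98, a ratio of 3.07, above that of 3LHet. Unplaced sequence U held 27 where widths gave 22.6. The centromere-near 2 Mb of an arm held 14 recurring regions on 2R and 17 on 3L, where widths gave 9.32 and 15.6. On 2L, 3R and X those ends held 6, 5 and 3, where widths gave 7.55, 6.04 and 6.40.

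**Figure D2:**
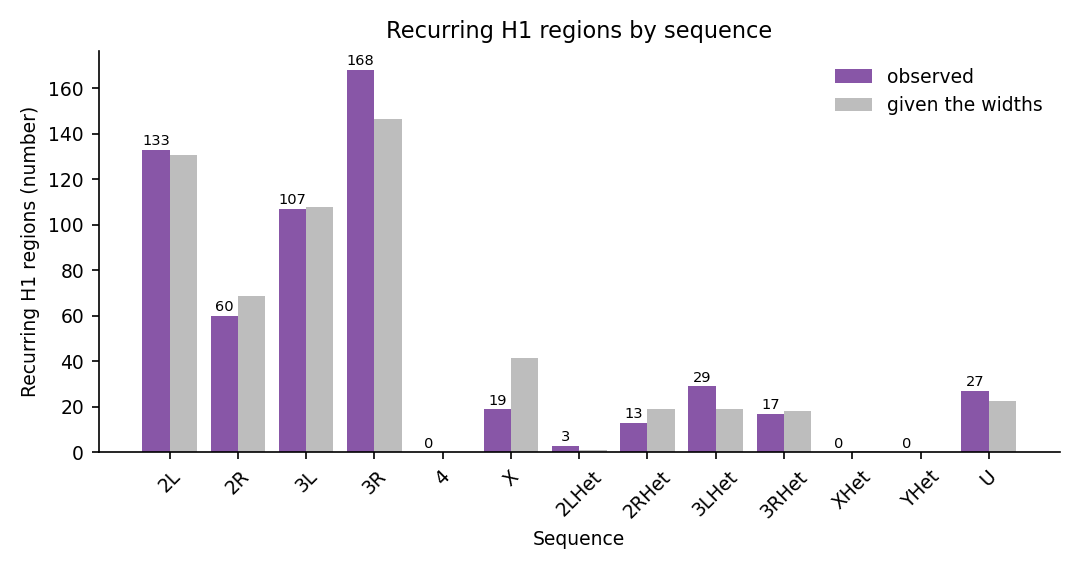
Number of recurring H1 regions (vertical axis) on each of the 13 sequences (horizontal axis). Purple bars are the observed numbers, and grey bars the number obtained when each combined region has the genome-wide recurrence share of its width bin. 3R (168 against 146.3) and 3LHet (29 against 19.2) lie above the grey bars, and X (19 against 41.4) and 2R (60 against 68.6) below.

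Recurring and unsupported regions were next compared at equal width, by weighting the unsupported regions of 8 width bins to the widths of the recurring regions. The widest bins hold few unsupported regions, 5 from 5000 to under 6000 bp and 1 above, so the weighted values lean on them. At matched width, the median number of other combined regions within 250 kb was 76.3 around recurring regions and 66.8 around unsupported regions. The median gap to the nearest combined region was 424.3 bp against 958.7 bp. Recurring regions thus lay in denser surroundings than unsupported regions of like width. In each of the 6 bins with at least 20 unsupported regions, the median number of neighbours within 250 kb was higher for recurring regions, as in the bin from 3000 to under 4000 bp with 76.5 against 69.

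The score in the combined list, the authors' value per region on an unknown scale, had a width-matched median of 0.419 for recurring and 0.394 for unsupported regions. The order differed between bins: it was 0.399 against 0.413 under 1500 bp and 0.364 against 0.383 from there to 2000 bp, but 0.440 against 0.385 from 2500 to under 3000 bp. Above 2000 bp recurring regions had the higher median in every bin.

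Recurring regions clumped along the chromosomes. The previous or next combined region was itself recurring for 138 of the 576, or 23.96%, against 6.85% of all combined regions and 5.71% of unsupported regions at matched width. The value for recurring regions was 18.6% to 27.6% in the 8 width bins, with no steady order by width, while regions touched by 2 lists had 9.67% to 18.1%. The 5.71% is lowered by the widest bins, where 0% of 5 and of 1 unsupported regions had such a neighbour. In the 6 bins with at least 20 unsupported regions, their share was 3.73% to 12.5%, lower than for recurring regions in each. Of 16177 pairs of adjacent combined regions, 74 were both recurring, or 0.46%, where the square of the recurring share is 0.13%. That square gives every combined region the same share, whatever its width or sequence. The matching above used the width of the region itself and not that of its neighbour, and the part of neighbour width in the clumping was not tested. A single replicate region can reach across the gap between neighbours, and 27 of the 74 pairs were bridged in this way in at least 1 list. The other 47 pairs were bridged in no list, and 92 recurring regions (16.0%) belonged to such a pair.

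**Figure D3:**
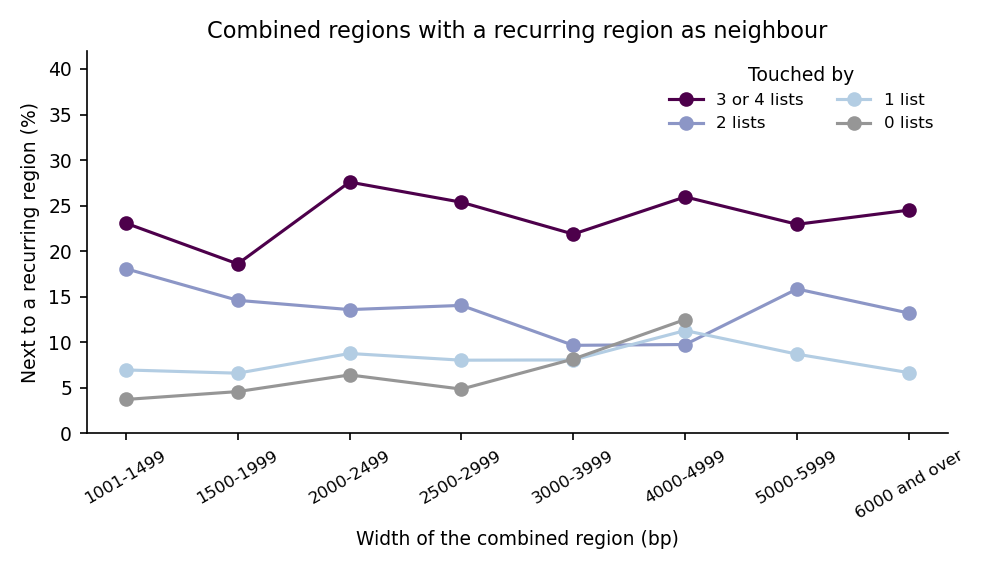
Share of combined regions (vertical axis, percent) whose previous or next combined region is a recurring one, by width (horizontal axis, bp), for regions touched by 3 or 4, 2, 1 and 0 lists. The line for 3 or 4 lists runs between 18.6% and 27.6%, and bins with under 20 unsupported regions are left out of the line for 0 lists.

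On a larger scale, a recurring region lay a median of 16.8 kb from the nearest other one (quartiles 3.53 and 72.4 kb), and 401 of the 576 (69.6%) had another within 50 kb. For unsupported regions at matched width the median distance to a recurring region was 89.4 kb, and 35.5% had one within 50 kb, as did 38.4% of all combined regions. By definition no replicate region joins an unsupported region to a recurring one, and the part of this in the distances was not tested. The matched values also lean on the few unsupported regions of the widest bins. Of 1405 windows of 100 kb, 1065 held no recurring region, while 57 windows (4.06%) held 3 or more and together contained 208, or 36.1% of all. Those windows were picked by their own count, and the share of all combined regions in them was not computed. The fullest windows were all on 3R: 16200001-16300000 and 23900001-24000000 with 8 recurring regions each, where widths gave 3.20 and 2.39, and the adjoining 24000001-24100000 with 7, where widths gave 2.18. By 1 Mb, 3R 24000001-25000000 led with 22 of 168 combined regions, or 13.1%, where widths gave 9.25. The next window in order, 3R 23000001-24000000, held 21 where widths gave 11.4. On 2L the window 17000001-18000000 held 19, nearer to the 15.7 given by its wide regions.

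Runs of neighbours were short. Of 502 runs of consecutive recurring regions, 438 were single regions, 56 were pairs, 6 were triplets and 2 had 4 members. The longest, 3LHet 1950324-1978643, spanned 28320 bp, of which 82.3% lay in its 4 recurring regions, and 3 of these were touched by 4 lists. The other run of 4, 3R 5110439-5124816, spanned 14378 bp. None of its 4 regions was touched by replicate 1, and each was touched by replicates 2, 3 and 4. In its second region, 5113868-5116206, those lists covered 98.0%, 48.7% and 65.5% of 2339 bp, and in its last, 5122996-5124816, they covered 100%, 57.8% and 74.6% of 1821 bp. The runs of 3 with the longest spans were 2L 11541151-11559625, 2L 11626656-11640046 and 3L 10032944-10045214, of 18475, 13391 and 12271 bp. In the 3L run 96.9% of the span lay in recurring regions.

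The rule asks that several lists touch a region but not that they touch the same bases. In 283 of the 576 recurring regions (49.1%) every touching list shared at least 1 bp, and in 293 (50.9%) no base was common to them all. Regions touched by 3 lists had a common part in 245 of 458 (53.5%), and those touched by 4 lists in 38 of 118 (32.2%), where 1 more list must coincide. A part covered by any 3 lists was present in 339 (58.9%). Regions without a common part were wider, with a median of 4464 bp against 3279 bp.

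Where a common part existed it was a small piece of the region. Its median length was 658 bp (quartiles 338.5 and 1163.5 bp), or 19.1% of the width. It was 1000 bp or longer in 92 regions and under 200 bp in 49, and its longest value was 2049 bp. Counting all bases of the recurring regions, 20.5% were covered by no list, 39.4% by 1, 27.9% by 2, 11.0% by 3 and 1.14% by 4. In total 27.7 kb were common to 4 lists. The centre of the common part fell in the middle of 3 equal parts of the region in 162 of 283 cases (57.2%), in the first in 69 and in the last in 52. Its median distance from the midpoint of the region was 445 bp. As given below, each list alone also covered the middle of the regions it touched more often than the edges. The part of this in the central position of the common part was not tested.

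The lists also placed their regions at different points. In the 408 recurring regions where each touching list had exactly 1 region, the midpoints of those regions spanned a median of 1746.75 bp (quartiles 1054.5 and 2530.5 bp). The span was at most 500 bp in 43 of them and over 2000 bp in 164. Across the recurring regions they touched, replicates 1 and 4 covered the middle in 63.1% and 61.9% and the first 2% of the width in 16.7% and 17.2%. Replicates 2 and 3 were more even, with 43.7% and 48.7% in the middle and 28.7% and 31.0% at the start. The combined list thus follows replicates 1 and 4 more closely in these regions than it follows replicates 2 and 3. Its construction is not described in any label or header used here.

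**Figure D4:**
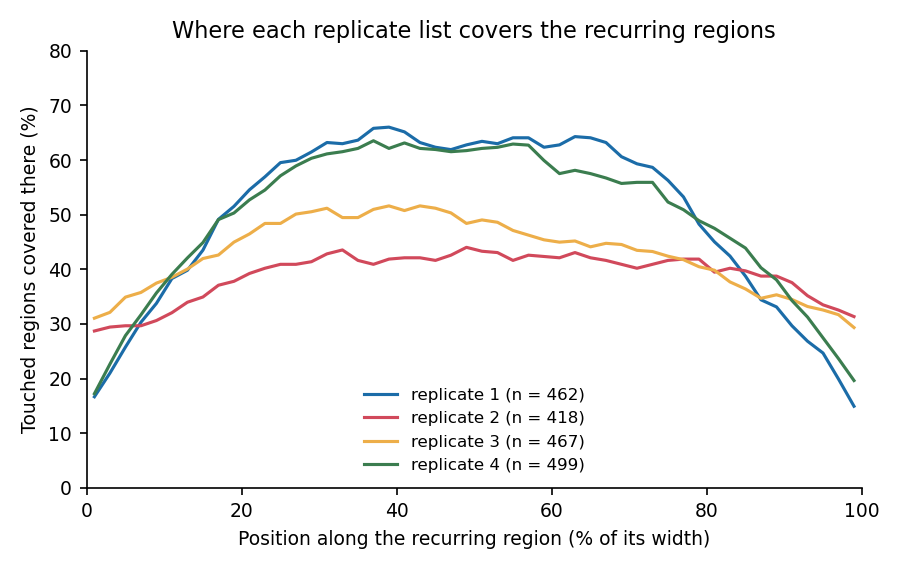
Share of the recurring regions touched by a replicate list that this list covers (vertical axis, percent) at 50 positions along the region scaled to its width (horizontal axis, percent of width). The lines of replicates 1 and 4 rise from below 20% at the edges to above 60% in the middle, and those of replicates 2 and 3 are flatter.

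The largest part common to 4 lists was on 2R. In the region 851626-861895, of 10270 bp, replicates 1 to 4 covered 50.9%, 62.6%, 41.6% and 59.5%, and 2016 bp lay in all 4 lists, in pieces between 857498 and 860349. The next was U 4469622-4472182, a region of 2561 bp covered at 80.3%, 85.0%, 79.1% and 85.3%. There 1942 bp, or 75.8% of the width, were common, the highest share in any recurring region touched by 4 lists. Coverage of this U region was high in every replicate, while in the wide 2R region the highest was 62.6%.

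On the arms, 3R 7972633-7975319 was the only other region with at least 50% of its width in all 4 lists. Its 2687 bp were covered at 52.6%, 85.3%, 95.3% and 62.6%, and 1414 bp were common, at 7973428-7974841. On 2L the region 16938232-16942913 had 1331 bp in common, with 60.1%, 28.4%, 65.3% and 48.4% of its 4682 bp covered. The limiting list was thus replicate 2 there and replicate 1 on 3R. 2L 14058030-14063315 and 3L 23444491-23452682 had 1242 and 1251 bp in common, or 23.5% and 15.3% of their widths.

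Unplaced and heterochromatic sequence held 5 of the 10 largest common parts. Besides the U region above, these were U 1197610-1203578 with 1630 bp, 3LHet 1956946-1960060 with 1305 bp, U 1539380-1543072 with 1237 bp and 3LHet 10215-14373 with 1217 bp. Of all 118 regions touched by 4 lists, 14 lay on the 6 Het sequences and 5 on U. The Het sequences and U held 10.8% and 4.69% of the recurring regions, and 8.12% and 5.11% of all combined regions. In the 3LHet region at 1956946, which belongs to the longest run, replicates 1 to 4 covered 65.7%, 50.0%, 41.9% and 59.6% of 3115 bp. The U region at 1539380 was covered at 45.3%, 79.2%, 81.4% and 95.8% of 3693 bp, with replicate 1 lowest. The next by share of width were 2L 3233829-3236295 (806 bp, 32.7%), U 3130904-3133485 (782 bp, 30.3%), 3L 11942678-11946045 (977 bp, 29.0%), 2L 1813348-1816853 (983 bp, 28.0%) and 3LHet 1924878-1929112 (947 bp, 22.4%). In 2L 3233829-3236295 the lists were nearly equal, at 56.1%, 52.5%, 52.9% and 60.1% of 2467 bp.

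With any 3 lists allowed, 3R 16223802-16226146 stood first among the regions touched by 3 lists. Replicates 2, 3 and 4 covered 88.1%, 89.3% and 87.4% of its 2345 bp and shared 2049 bp, while replicate 1 had no region there. On 2L the largest part in at least 3 lists was 4800 bp in 11541151-11548293, a region covered at 47.1%, 70.7%, 67.6% and 74.2%. Only 42 bp of it were in all 4 lists. On 2RHet 1864619-1867138, on 3RHet 860541-865444 and on 2LHet 189161-194256, the parts in at least 3 lists were 1451, 1394 and 1958 bp. On X the largest was 1603 bp, in 22277896-22282060, which was touched by 4 lists without a base common to them all.

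At the other end, the widest regions without a common part were 3L 2007295-2019827, 3R 23580186-23592096 and 3R 23184020-23195905. In the first, of 12533 bp, replicates 1, 3 and 4 covered 42.6%, 20.5% and 40.3% in 3, 2 and 2 pieces, and 3410 bp were in no list. In the second, of 11911 bp, replicates 1, 2 and 4 covered 31.6%, 12.1% and 12.8%. In the third, of 11886 bp, replicates 1 to 4 covered 36.2%, 12.04%, 48.4% and 13.1%, and 232 bp were in 3 lists.

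Whether recurrence in 3 lists is matched by a list that took no part in the choice was tested by leaving out each replicate in turn. The first of these tests used bases and no combined list, and was added after the other results were seen. Of the bases covered by no other list, the left-out list covered 2.63% ± 0.55. Of those covered by 1, 2 and 3 other lists it covered 9.86% ± 1.96, 16.0% ± 2.89 and 29.6% ± 4.96 (SD, n = 4). The values for 3 other lists were 27.2%, 23.9%, 34.9% and 32.3% for replicates 1 to 4, over 79.3 to 115.7 kb, and those for 1 other list were 9.80%, 7.31%, 10.3% and 12.1%. Every value for 3 lists was above every value for 1, and the groups did not overlap. The difference was 19.7 ± 3.65 percentage points, positive in 4 of 4 replicates. The bases covered by the left-out list among those in 3 other lists were the same 27.7 kb common to 4 lists each time. The 4 values are thus not independent, and the SD and p treat them as separate. The same holds below wherever bases in 3 other lists are used. The exact two-sided sign-flip permutation test gave p = 0.13 (2 of 16 sign patterns), the smallest that 4 replicates allow, and 0.15 after adjustment over 6 tests, so it could not pass 0.05.

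The labels give replicates 1 to 4 the experiment numbers 1715, 1725, 2291 and 2292, in which the first pair and the last pair lie close together and are treated here as sets. With 3 other lists both sets always enter, so the sets were compared on bases covered by exactly 1 other list, a comparison added after the data were seen. Where that list was of the same set, replicates 1 to 4 covered 8.92%, 6.68%, 9.97% and 12.3% of these bases. Where it was of the other set they covered a mean of 10.1%, 7.61%, 10.5% and 11.9%. The difference was -0.58 ± 0.66 points (SD, n = 4), with replicate 4 alone higher within its set (exact two-sided sign-flip permutation p = 0.25, not adjusted). The first pair and the last pair were each counted in both directions over the same jointly covered bases. The 4 values are thus not independent, and the SD and p treat them as separate.

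Bases 5 to 20 kb away from those in 3 lists were covered by the left-out list at 7.77% ± 1.57 (SD, n = 4). This was above the 2.63% of bases in no other list. The bases in 3 other lists stood 3.85 ± 0.41-fold above this local level (SD, n = 4), with a difference of 21.8 points, positive in 4 of 4 replicates (exact p = 0.13). Most bases common to 3 lists were missing from the list left out, in each of the 4 replicates. On 2L, 2R, 3L, 3R, 4 and X the share in 3 other lists was 24.1% ± 3.19, and on the Het sequences and U together it was 47.2% ± 13.2 (SD, n = 4). The difference between 3 and 1 other lists was larger on Het and U by 22.3 ± 10.3 points, in 4 of 4 replicates (exact p = 0.13, adjusted 0.15), a comparison chosen after the values were seen.

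The second test used the combined regions. Of those touched by all 3 other lists, 195 to 276 in number, the left-out list touched 50.9%, 42.8%, 52.0% and 60.5% for replicates 1 to 4. Among combined regions of the same widths touched by none of the other lists it touched 52.5%, 14.6%, 32.9% and 56.8%. The groups overlapped: replicates 2 and 3 were higher in the recurring regions by 28.2 and 19.1 points, while replicate 4 was higher by 3.67 points and replicate 1 differed by -1.69 points. The regions touched by the left-out list and all 3 others were the same 118 each time. The 4 values are thus not independent. The mean difference was 12.3 ± 13.8 points (SD, n = 4), positive in 3 of 4 replicates (exact sign-flip permutation p = 0.25, adjusted 0.25 over the 3 planned tests). It changed sign when replicate 2 or replicate 3 was left out, to -4.65 and -1.99 points. Without matching for width it was 39.7 points (exact permutation p = 0.13), and when the left-out list had to cover at least 50% of the combined region it was 5.66 points (exact permutation p = 0.25). The widths of combined regions are not independent of replicates 1 and 4, which the combined list follows most closely, and the part of this in the result was not tested.

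**Figure D5:**
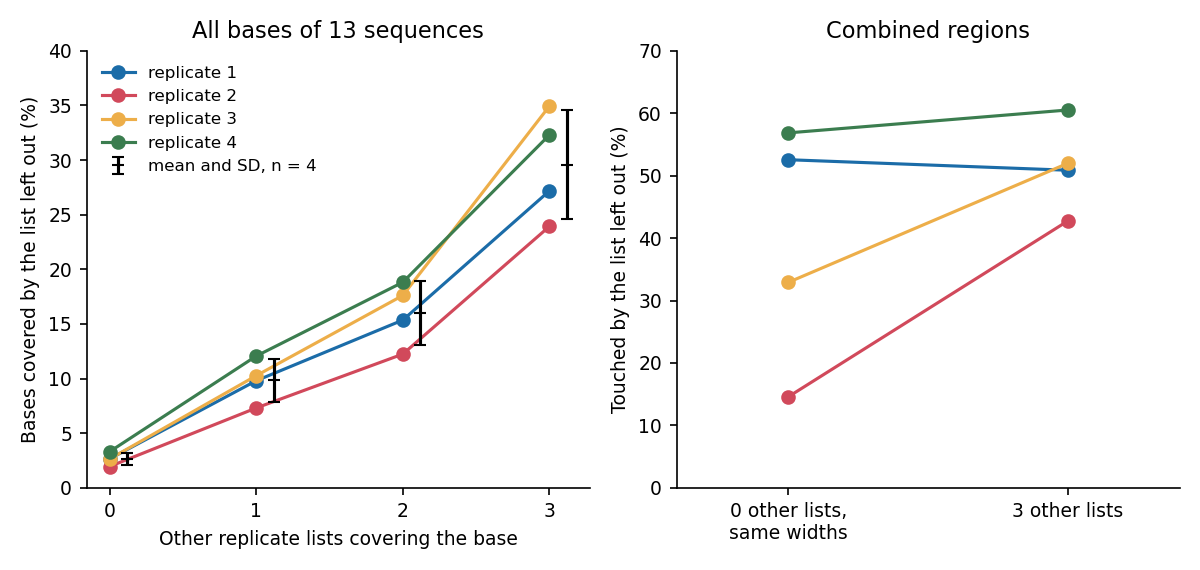
Left, share of bases covered by the replicate list left out (vertical axis, percent) by the number of other lists that cover the base (horizontal axis), per replicate and as mean and SD of 4; the mean goes from 2.63% to 29.6%. Right, share of combined regions touched by the list left out (percent), for regions touched by 0 other lists at matched width and by 3 other lists; replicates 2 and 3 rise and replicates 1 and 4 differ by less than 4 points.

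The third test asked whether the part common to 3 lists is where the left-out list has its region. Inside that part the left-out list covered 29.9% ± 5.06, and in the rest of the same 102 to 142 combined regions 23.1% ± 6.04 (SD, n = 4). For replicates 1 to 4 the values were 27.5% against 24.8%, 23.98% against 15.8%, 34.9% against 21.7% and 33.2% against 30.2%. The covered bases inside the common part were those in all 4 lists each time, so these values are not independent either. The difference of 6.74 ± 5.02 points was positive in 4 of 4 replicates (exact sign-flip permutation p = 0.13, adjusted 0.188). It depended on the sequences: on the major arms it was 1.60 ± 5.71 points, negative for replicates 1 and 4, and on the Het sequences and U 21.3 ± 6.33 points (SD, n = 4). The Het and U values were larger in 4 of 4 replicates, by 19.7 ± 8.59 points (exact p = 0.13, adjusted 0.15), with 17 to 37 regions per replicate behind them. Against the mirror image of the common part about the midpoint the difference was 3.17 points (exact p = 0.375). Without replicate 2 or replicate 3 it was -0.21 and -1.98 points.

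Scores took no part in the choice of regions by overlap, but nothing in the labels or headers says that the combined list was made without the library left out. A combined region touched by none of the others may thus not be independent of that library, and the part of this in the score result was not tested. Regions of the left-out list that lay in combined regions touched by all 3 others had a lower score than regions of like width in combined regions touched by none of the others. The medians were 0.583 against 0.610 for replicate 1, 0.680 against 0.710 for replicate 2, 0.580 against 0.602 for replicate 3 and 0.543 against 0.566 for replicate 4. The combined regions touched by the left-out list and all 3 others were the same 118 each time, though each list gave its own scores. The 4 differences are thus not fully independent, and the SD and p treat them as separate. The difference was -0.026 ± 0.0036 (SD, n = 4), negative in 4 of 4 replicates (exact sign-flip permutation p = 0.13, adjusted 0.188). It is small beside the spread of medians between lists. When each list was cut to the upper part of its scores, from its median upwards, it was -0.0071, and the replicates no longer had 1 sign (exact p = 0.375).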

How the data were processed

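The authors deposited lists of enriched regions and no reads or signal: 1 list for each of 4 immunoprecipitated libraries and 1 combined list. A region has a start, an end and a score, the authors' own value, whose scale no label or header describes. Bowtie 0.12.7 is the aligner named in the submitters' processing notes. Coordinates are on FlyBase r5, per the file headers. The region caller and the way the lists were combined were not stated. Without read counts, depth is unknown.

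Python 3.11.15 was used with numpy 2.4.6 for overlaps, pandas 2.3.3 for tables, scipy 1.17.1 for binomial intervals and matplotlib 3.10.9 for plots. Overlap was counted base by base over 13 sequences. Width matching used 8 bins with limits at 1500, 2000, 2500, 3000, 4000, 5000 and 6000 bp. Tests were exact two-sided sign-flip permutations over 4 replicates with Benjamini-Hochberg adjustment, over the 3 planned tests or, for those added later, over all 6. The left-out values for touch, bases and common part share their jointly covered regions or bases, so they are not independent. The score values for 3 other lists come from the same 118 combined regions each time, so they are not fully independent either. The functions were checked on simulated lists with planted common regions. Members, lists and tests were chosen with earlier results of these data known. Alternatives were other overlap minimums, score limits, equal list lengths, major arms only, other reference bases and leaving out each replicate. Regions were named by rule: the 10 with most bases in 4 lists, the next 5 by share of width, the 5 longest runs, the best on each sequence, the 3 fullest windows of 100 kb and the 3 widest without a common part. The X region given as an example and the fullest windows of 1 Mb were picked after their values were seen. Genes and sequences are not given, because the only gene table at hand is on Release 6.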

Additional observations from a re-analysis of the deposited data

Results flagged for a closer look

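The 4 replicate values of 40 measures were searched for a value standing well apart, and chance would give 2. A single one was found: the largest number of regions of 1 list in a single recurring region was 4 for replicate 4 and 3 for each of the others, which is the smallest step this count can take.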

How the results depend on the processing

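The number of recurring regions depended on every rule for counting a list except the restriction to major arms. It was 366 and 81 when at least 25% and 50% of the combined region had to be covered in each list, 325 with equal numbers of regions per list, 114 with the upper part of the scores of each list, from its median upwards, and 195 to 276 when 1 replicate was left out and the 3 others all had to touch. The latter setting also lowered the share recurring, to 1.37% to 1.77% on 2L, 2R, 3L and 3R, 0.15% to 0.69% on X and 1.52% to 2.66% on the Het sequences, by construction, since fewer regions qualify; standardised for width the share on X was 1.93%. The share with a common base was 58.9% for any 3 lists and 45.8% to 53.0% without 1 replicate. The share of recurring regions next to another was 40.6%, 69.6% and 78.8% when another within 10, 50 and 100 kb counted (14.5%, 38.4% and 53.3% of all combined regions), 16.0% for pairs bridged in no list, a setting added after the data were seen, and 7.69% to 14.7% without 1 replicate, where 2.37% to 3.37% of all combined regions had such a neighbour. With 50% overlap it was 2.47%, which is 2 of 81 regions, against 1.00% of all combined regions. The touch difference was 39.7 points without matching for width and 5.66 when at least 50% of the region had to be covered by the left-out list. It ran from -4.65 to 11.8 points without 1 replicate, reversing without replicate 2 (-4.65) and replicate 3 (-1.99), and the difference between common part and rest from -1.98 to 4.60, reversing without the same replicates (-0.21 and -1.98); the cause was not tested. The score difference ran from -0.025 to -0.013 and the base difference from 6.42 to 9.18 points, both in 1 direction throughout; the base difference was lower than the reported 19.7 because only 2 other lists then remain. Of 77 recomputed values 43 kept their direction, stayed within the error of the reported value or, for the number of recurring regions, within a fixed ratio of it. No paired analysis was possible because the numbers shared between groups link each immunoprecipitated library to its input, and inputs were not analysed here. Chromosome 4, XHet and YHet are limited by their few combined regions, and read depth is unknown.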
